A study of Homo sapiens with 2 samples.

Results

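The cytosolic HSP90 chaperone genes and the genes of their main co-chaperones were examined in HEK293T cells after a heat shock treatment and recovery. The group was given as a list of 10 symbols: the isoforms HSP90AA1 and HSP90AB1 and the co-chaperones STIP1, AHSA1, PTGES3, CDC37, FKBP4, FKBP5, CHORDC1 and STUB1. All 10 were found by symbol among 57736 genes, and the rule that lists them uses no measured value. HEK293T, labelled wild type, is a human embryonic kidney line carrying the large T antigen of SV40, and the libraries were made in a study of the contacts of ribosomal DNA clusters with other genome regions. Heating lasted 20 min at 43 °C, recovery took 6 h at 37 °C, and poly(A)+ RNA was sequenced. These times are those of the labels, and the study's text describes a longer heating. There was 1 group of 2 libraries, replicate 1 and replicate 2, from separately lysed cells of the same line, and nothing in the labels says whether they were grown as separate cultures, so the spread between them may be technical. Untreated cells are not analysed here, so the values describe the recovered state and no change with heat shock was measured.

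HSP90 is an ATP-driven chaperone that works as a dimer and completes the folding of kinases, steroid hormone receptors and other regulatory proteins. Clients are handed over from HSP70 through the adaptor HOP (STIP1), the ATPase is sped up by AHA1 (AHSA1), and p23 (PTGES3) binds the closed, ATP-bound form. HSP90AB1 encodes the constitutive cytosolic isoform and HSP90AA1 the stress-inducible one, whose transcription is raised by heat shock factor 1 (HSF1) through heat shock elements, arrays of inverted GAA units.

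The libraries held 22529828 expected counts in replicate 1 and 26890199 in replicate 2, and a count of 0 allowed up to 3 counts, which is 0.133 and 0.112 CPM (counts scaled to the library total). These limits, and all intervals below, cover counting error only. The label of kidney was checked against 15 kidney epithelial genes, of which 5 reached 1 TPM (transcripts out of a fixed total, from reads divided by length) in both libraries, led by KRT18 at 52.6 ± 7.78 TPM (SD, n = 2), while UMOD and CDH16, among others, had no counts. The summed level of these 15 genes was 93.7 TPM in replicate 1 and 78.9 TPM in replicate 2. Markers of blood cells reached that level in 0 of 3 genes, those of endothelium in 0 of 2 matched genes and those of fibroblasts in 1 of 3 (COL1A1). Of 3 matched neuronal genes 3 did, led by UCHL1 at 382 ± 21.0 TPM.

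Since heat was applied, promoters of the group were searched for the heat shock element. RefSeq promoters (GRCh38.p14) of 300 bases, from 250 before to 50 after the annotated start, were at hand for 8 of the 10 genes in 14 promoters, and FKBP4 and STUB1 had no entry. The longer motif, 3 units in a row (GAANNTTCNNGAA, or TTCNNGAANNTTC on the other strand), was present in 172 of 35116 promoters of all genes, which is 0.490%, and in 166 of 27305 genes, which is 0.608%. Of the 8 genes at hand, 3 held it, each in 1 promoter: HSP90AA1, HSP90AB1 and CHORDC1. The sequences around those matches are shown because they set these 3 genes apart from the other 5, with each match and its overlapping repeats in capitals and the strand of the gene read 5′ to 3′.
HSP90AA1: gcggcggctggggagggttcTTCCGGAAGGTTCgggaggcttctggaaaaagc
HSP90AB1: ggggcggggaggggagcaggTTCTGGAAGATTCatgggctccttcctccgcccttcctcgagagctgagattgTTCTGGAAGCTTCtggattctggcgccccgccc
CHORDC1: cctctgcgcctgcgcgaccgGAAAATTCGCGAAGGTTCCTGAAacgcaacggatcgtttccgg

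Each stretch had a single match on its chromosome in GRCh37, the build of the deposited tables. That of HSP90AA1 lay at chr14:102553437-102553489 (minus strand), inside an intron of the annotated gene and with its match from 88 to 76 bases before a RefSeq start. The stretch of HSP90AB1 lay at chr6:44215495-44215600 (plus strand) in an intron, and its pair of matches fell between 165 and 100 bases before the third annotated start. The stretch of CHORDC1 lay at chr11:89956235-89956297 (minus strand), and only its lower-case end after the matches overlapped an annotated exon. Its 3 overlapping matches, from 60 to 38 bases before the start, lay outside the annotated gene, whose highest position is 89956245. The shorter motif of 2 units (GAANNTTC or TTCNNGAA, each its own reverse complement, and contained in every match of the longer motif) was found in 4 of the 8 genes. STIP1 was the fourth, with 1 match. By promoter, 4 of 14 held this motif, against 13.5% of all promoters, and 16.2% of all genes held it in at least 1 promoter. A match is a string of letters in this window, and HSF1 binding was not measured.

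**Figure D1:**
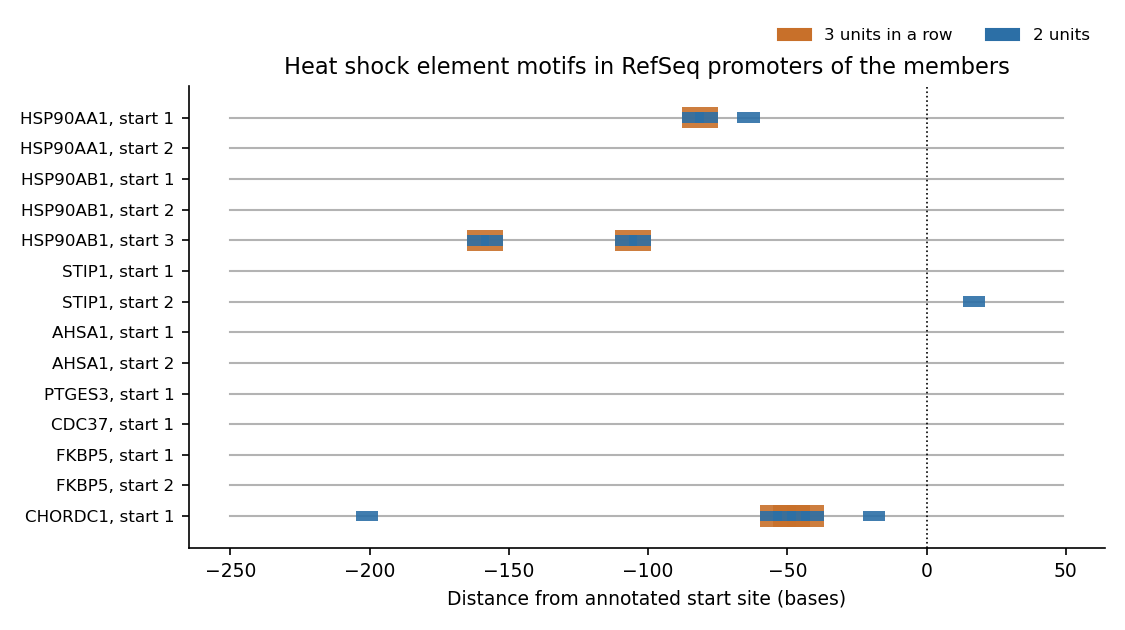
Heat shock element motifs by distance in bases from each annotated start (dotted line) in the 14 RefSeq promoters of 8 of the genes. Wide orange bars mark 3 units in a row and narrow blue bars 2 units. The longer motif appears only in HSP90AA1, HSP90AB1 and CHORDC1, in 1 promoter of each.

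All 10 genes passed 1 TPM in both libraries, against 26.3% of all genes in the tables. As TPM is per length, levels of different genes can be set side by side. Together the group held 0.301% of TPM in replicate 1 and 0.303% in replicate 2. The total was therefore nearly equal in the libraries, while its makeup was not, as the isoforms below show.

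HSP90AB1 (ENSG00000096384; chromosome 6, 44213903 to 44221625, GRCh37) had the highest level, 629 TPM in replicate 1 and 623 TPM in replicate 2. By TPM the libraries were nearly equal, and 98.9% of the genes that passed 1 TPM lay below it. HSP90AA1 (ENSG00000080824; chromosome 14, 102547079 to 102606036) stood at 247 TPM in replicate 1 and 408 TPM in replicate 2. Replicate 2 was thus the higher library for the inducible isoform, and the deposited 95% credibility bounds, 236 to 247 TPM and 391 to 405 TPM, did not overlap. In bulk RNA, more cells expressing a gene and more of its RNA per cell cannot be told apart. The level of HSP90AB1 over that of HSP90AA1 was 2.54 in replicate 1 and 1.53 in replicate 2. HSP90AB1 was the more abundant isoform in both libraries, and HSP90AA1 made up 28.2% of cytosolic HSP90 TPM in replicate 1 and 39.6% in replicate 2. The bounds belong to the posterior mean, which was lower than the TPM itself, and the TPM lay above its upper bound for 3 of the 10 genes in each library.

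HSP90 genes have many processed copies, so the reads that could have been shared were counted. In reference transcripts, 14.4% of the 50-base sequences of HSP90AA1 and 16.6% of those of HSP90AB1 also occurred in another gene, most often in HSP90AA2P and HSP90AB3P. Only few reads were given to these copies. The 5 pseudogenes of HSP90AA1 in the tables held 6.71 and 12.98 expected counts in replicates 1 and 2, beside 11673 and 21052 for HSP90AA1. The 5 of HSP90AB1 held 67.1 and 71.5, beside 28915 and 32616. The posterior SD, the uncertainty from sharing reads, was 1.86 and 2.73 reads for HSP90AA1 and 2.77 and 2.73 for HSP90AB1, so the difference between the isoforms was far larger than the reads in doubt. Over all members, 27 pseudogenes were listed, and HSP90AB2P, at 2.14 and 2.6 TPM, was the single one with a mean of at least 1 TPM.

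**Figure D2:**
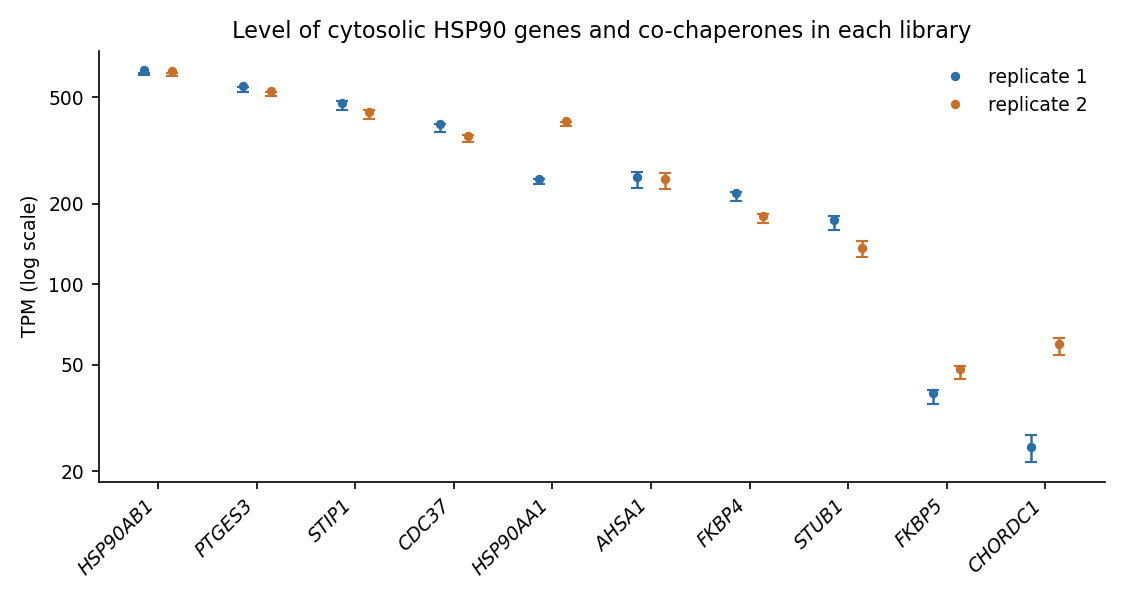
TPM of each gene (log scale) in replicate 1 (blue) and replicate 2 (orange), ordered by mean TPM. Dots are TPM and bars are the deposited 95% credibility bounds, which surround the posterior mean and can lie below the dot. HSP90AA1 (247 and 408 TPM) and CHORDC1 (24.6 and 59.8 TPM) show the widest gaps between the libraries.

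Of the co-chaperones that act on the ATPase cycle itself, PTGES3 was among the most abundant of the group and AHSA1 stood sixth by mean TPM. PTGES3 (ENSG00000110958; chromosome 12, 57057125 to 57082192), which encodes p23, was at 550 TPM in replicate 1 and 528 TPM in replicate 2, the second highest level of the group in both libraries. AHSA1 (ENSG00000100591; chromosome 14, 77924213 to 77935815) was at 252 and 248 TPM. The libraries thus differed little for either gene on the TPM scale. AHSA1 needs care in comparison with other genes, since its effective length, averaged over the isoforms the quantifier favoured, was only 686 bases in replicate 1 and 663 in replicate 2, while its 13 listed transcripts run from 432 to 1337 bases in the reference. By CPM, which ignores length, AHSA1 stood below FKBP4, with 133 ± 9.47 CPM against 285 ± 39.3 CPM (SD, n = 2).

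The client-loading co-chaperones lay between PTGES3 and AHSA1 in mean TPM. STIP1 (ENSG00000168439; chromosome 11, 63952744 to 63972015), the adaptor that holds HSP70 and HSP90 together, was at 477 TPM in replicate 1 and 441 TPM in replicate 2. CDC37 (ENSG00000105401; chromosome 19, 10501809 to 10530797), which brings protein kinases to HSP90, was at 395 and 358 TPM. Both were higher in replicate 1, and neither overlapped the other. For CDC37 the posterior SD was 10.7 of 7767 reads in replicate 1 and 12.4 of 8275 in replicate 2, and the annotated microRNA gene MIR1181, which lies inside its exons on the same strand, was given 183 and 187 expected counts.

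The immunophilins and CHIP, which like STIP1 dock on the C-terminal end of HSP90 through tetratricopeptide (TPR) domains, spanned a wide range. FKBP4 (ENSG00000004478; chromosome 12, 2904136 to 2914589), the immunophilin FKBP52 that favours steroid receptor activity, was at 218 TPM in replicate 1 and 180 TPM in replicate 2. Its relative FKBP5 (ENSG00000096060; chromosome 6, 35541362 to 35696360), or FKBP51, which restrains the glucocorticoid receptor, was at 39.1 and 48.2 TPM. FKBP4 was therefore the more abundant immunophilin in each library, by 5.58-fold in replicate 1 and 3.73-fold in replicate 2. STUB1 (ENSG00000103266; chromosome 16, 730224 to 732870) encodes CHIP, the ubiquitin ligase that marks chaperone-bound proteins for degradation, and was at 174 and 137 TPM. STUB1 shares 985 of its 2318 exonic bases (42.5%) with JMJD8 on the opposite strand, and the sources used here do not state whether counting used strand. Its posterior SD was the largest of the group, 31.9 of 3413 reads in replicate 1 and 28.4 of 3055 in replicate 2, and reads of STUB1 and JMJD8 cannot be told apart over the shared bases if strand was not used.

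CHORDC1 (ENSG00000110172; chromosome 11, 89933597 to 89956245), a co-chaperone with zinc-binding CHORD domains, was at 24.6 TPM in replicate 1 and 59.8 TPM in replicate 2. It held the lowest place of the group in replicate 1 and lay above FKBP5 in replicate 2. Its 583 and 1604 expected counts had posterior SDs of only 1.6 and 2.41 reads.

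In the order of mean TPM, HSP90AB1 was followed by PTGES3, STIP1, CDC37, HSP90AA1, AHSA1, FKBP4, STUB1, FKBP5 and CHORDC1. Of the 9 neighbouring pairs, 6 were separate, in that both libraries of the higher gene lay above both of the lower. The pairs that were not separate were CDC37 and HSP90AA1, HSP90AA1 and AHSA1, and FKBP5 and CHORDC1, all with opposite orders in the libraries. HSP90AA1 thus had no settled place: it ranked below AHSA1 in replicate 1 and above CDC37 in replicate 2. By mean CPM, HSP90AA1 stood second, at 651 ± 187 CPM (SD, n = 2), behind HSP90AB1 at 1248 ± 49.8 CPM. That place rested on replicate 2, since in replicate 1 STIP1, at 637 CPM, was above HSP90AA1, at 518 CPM.

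**Figure D3:**
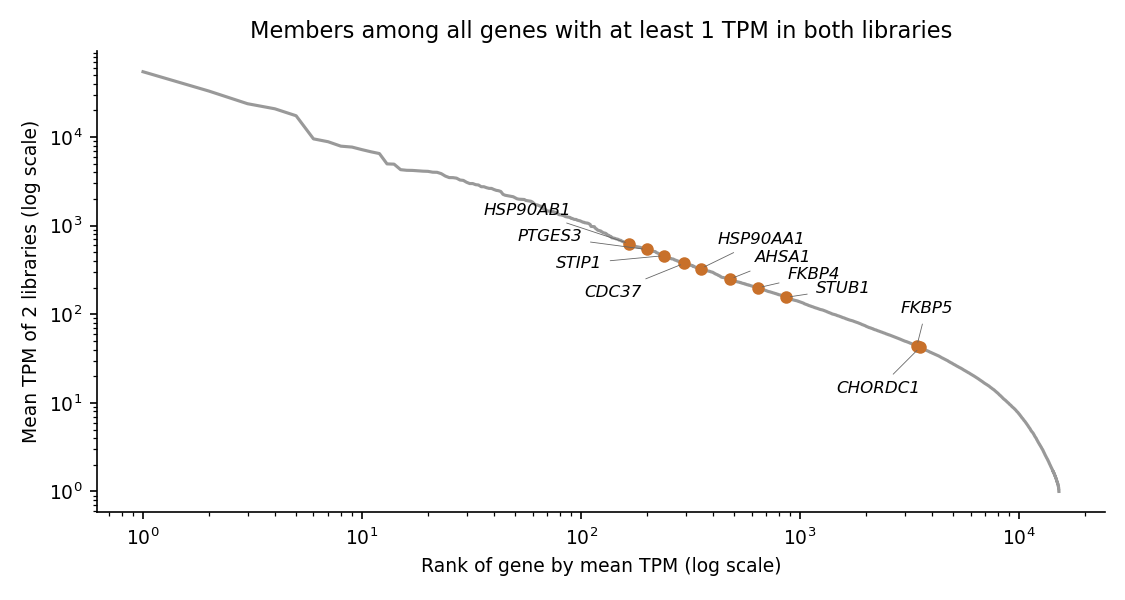
Mean TPM of the 2 libraries against rank, both on log scales, for the genes with at least 1 TPM in both libraries (grey line), with the group marked in orange. HSP90AB1, the highest of the group, ranks 166, and FKBP5 and CHORDC1 rank 3408 and 3521.

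The balance between HSP90 and its partners was then described as a ratio of TPM. The 8 co-chaperones summed to 2130 TPM in replicate 1 and 1999 TPM in replicate 2, and HSP90AA1 and HSP90AB1 together to 876 and 1032 TPM. Co-chaperone transcripts thus exceeded those of HSP90 by 2.43-fold in replicate 1 and 1.94-fold in replicate 2. Counted as reads instead, where longer transcripts weigh more, the ratios were 1.2 and 0.976. Relative to cytosolic HSP90, PTGES3 was at 62.7% and 51.1%, STIP1 at 54.4% and 42.7%, and CDC37 at 45.1% and 34.7% in replicates 1 and 2. FKBP5 had nearly the same share in both, 4.47% and 4.67%, and CHORDC1 was at 2.80% and 5.80%. These are ratios of transcripts, and protein was not measured.

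Whether the reads of a member differed between replicate 1 and replicate 2 by more than counting error was then tested, which sets library against library and bears on no condition. With an exact binomial test (two-sided), library shares taken from TMM factors and Benjamini-Hochberg adjustment over 19714 genes, all 10 members passed the threshold of 0.05, against a background of 43.1%. Among the 5212 genes whose counts summed to at least 2000, as those of all 10 members did, the background was 79%. Most genes read this deeply passed, so the count of 10 says little about the group, and sizes are given instead. Replicate 2 was higher for 3 members (background 20.9%, or 29.1% among the deeply read genes) and replicate 1 for 7 (background 22.2%, or 50%). The log2 ratio, always replicate 2 over replicate 1, had a median of -0.18 over the members and -0.0014 over all genes tested. These medians cover unlike sets, since more of the deeply read genes were higher in replicate 1 than in replicate 2. No median over the deeply read genes is given. When a biological coefficient of variation of 0.1 was assumed in the exact test of edgeR, to allow for spread beyond counting, CHORDC1 alone passed (adjusted p = 9.49e-06) and was higher in replicate 2, against a background of 7.24% in either direction and 6.69% in that one. HSP90AA1 was next, with an adjusted p of 0.0893 by that exact test.

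CHORDC1 had the largest ratio of the group, with a log2 ratio of 1.16 (95% counting interval 1.02 to 1.3), or 2.23-fold, and an adjusted p of 1.74e-66 by the exact binomial test. Of the deeply read genes, 1.96% had a larger ratio in either direction. HSP90AA1 followed with 0.55 (0.51 to 0.58), or 1.46-fold, and 9.61% of those genes had a larger ratio. HSP90AB1 had a log2 ratio of -0.13 (-0.15 to -0.11), and -0.08 with library totals. Its TPM was nearly equal, 629 in replicate 1 and 623 in replicate 2. TPM, library totals and TMM factors scale the libraries differently, so the size of small ratios depends on the scale. Whether the heat shock element motif bears on any of these ratios was not tested. FKBP5 had a small ratio of 0.14 (0.05 to 0.23).

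The other 6 members, AHSA1, PTGES3, STIP1, CDC37, FKBP4 and STUB1, were all higher in replicate 1. STUB1 was the farthest, with a log2 ratio of -0.46 (-0.53 to -0.39), followed by FKBP4 with -0.33 (-0.38 to -0.28) and STIP1 with -0.26 (-0.29 to -0.23). CDC37 had -0.21, AHSA1 -0.19 and PTGES3 -0.17. For these 3 genes, more than 50% of the deeply read genes had a larger ratio, so they differed less than a typical gene.

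GC content moved with these ratios. Over 13544 genes whose counts summed to at least 100, the log2 ratio had a Pearson's r of -0.617 with the GC content of the reference transcripts, and over the 10 members r was -0.658. These points share their libraries, and no test was made. CHORDC1 has the lowest GC content of the group, 41.3%, and STUB1 the highest, 63.7%. With the trend over all genes removed, the log2 ratio of CHORDC1 was 0.77 and that of HSP90AA1 0.44, so both remained higher in replicate 2. STUB1 went from -0.46 to -0.23, FKBP4 from -0.33 to -0.20, and CDC37 from -0.21 to -0.02, where it no longer passed (adjusted p = 0.570, exact binomial test).

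PTGES3 and FKBP5, also of low GC content, shifted towards replicate 1 when the trend was removed. PTGES3, at 43.2% GC, went from -0.17 to -0.46, and 6.58% of the deeply read genes then had a larger ratio. FKBP5, at 43.0% GC, turned from 0.14 to -0.15 (adjusted p = 0.00229, exact binomial test). After removal, 9 of the 10 members passed, against a background of 30.4%, or 61.1% among deeply read genes. HSP90AA1 and CHORDC1 were the 2 higher in replicate 2 (background 12%, or 17.1% among deeply read genes), and 7 were higher in replicate 1 (18.4%, or 44%). What part GC content has in the difference of any single gene was not tested.

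**Figure D4:**
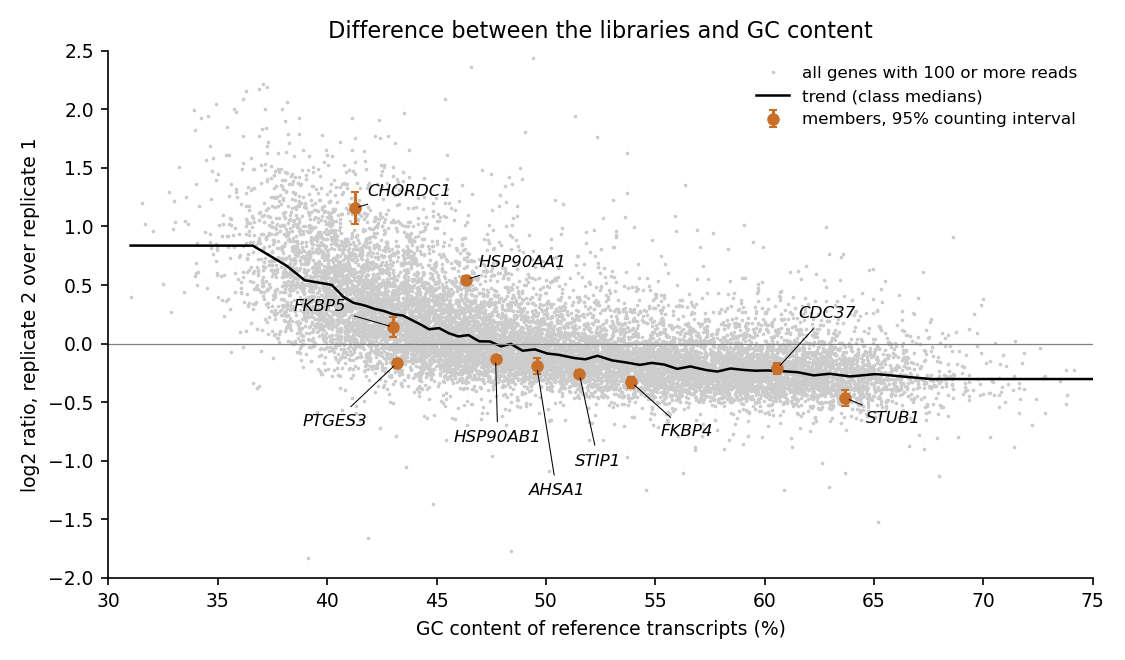
Log2 ratio of replicate 2 over replicate 1 against the GC content of reference transcripts (%) for 13544 genes whose counts summed to at least 100 (grey, 8 of them outside the axes), with the medians of classes of genes as a black line. Orange points are the members with 95% counting intervals. CHORDC1 (1.16) and HSP90AA1 (0.55) lie above the line, and PTGES3 (-0.17) lies below it.

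Effective lengths gave a limited view of isoforms, since the tables list genes only. HSP90AA1 had an effective length of 2586 bases in replicate 1 and 2484 in replicate 2, with reference transcripts of 429 to 3510 bases. FKBP4 went from 1771 to 1856 bases and FKBP5 from 2727 to 2644. HSP90AB1, with 3 transcripts of 2555 to 2674 bases, stayed at 2521 in both. A shift in length changes TPM without a change in reads, but for HSP90AA1 it was small beside the 1.46-fold difference in reads. Exons of WDR20, on the opposite strand, cover 3.87% of the exonic bases of HSP90AA1, and exons of VIPAS39 cover 2.82% of those of AHSA1.

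The paralogues of other compartments differed in opposite directions as measured. HSP90B1, the endoplasmic reticulum form GRP94, was at 269 TPM in replicate 1 and 379 TPM in replicate 2, with a log2 ratio of 0.44. TRAP1, the mitochondrial form, was at 661 and 529 TPM, with a log2 ratio of -0.41. TRAP1 was above HSP90B1 in both libraries, but HSP90B1 had its higher level in replicate 2 and TRAP1 in replicate 1, and with the GC trend removed their ratios were 0.07 and -0.22.

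Of 26 other co-chaperone genes, 23 passed 1 TPM in both libraries, and 23 had enough reads for the test. By the exact binomial test, 8 of the 23 were higher in replicate 2 (background 20.9%, or 29.1% among deeply read genes) and 11 in replicate 1 (22.2%, or 50%), with a median log2 ratio of -0.07. The highest was ST13, the HSP70-interacting protein HIP, at 365 TPM in replicate 1 and 394 TPM in replicate 2. FKBP8, an immunophilin of the mitochondrial outer membrane, was at 204 ± 11.2 TPM, SGTA at 185 ± 19.6, RUVBL2 at 163 ± 26.5 and DNAJC7 at 148 ± 2.89 (SD, n = 2). RPAP3, a subunit of the R2TP complex that works with HSP90, had the largest ratio, with 49.2 and 97.8 TPM and a log2 ratio of 1.03, which was 0.15 with the GC trend removed. RUVBL2, an ATPase of the same complex, had the largest in the other direction, -0.44, or -0.26 with the trend removed. The other listed subunits of the complex, RUVBL1 and PIH1D1, had log2 ratios of -0.31 and -0.29, on the side of RUVBL2. RPAP3 was thus the only listed subunit that was higher in replicate 2. With the trend removed, RUVBL1 had -0.24 and PIH1D1 -0.10, so the ratios of all these subunits shrank.

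AIPL1, the co-chaperone of the retina, and UNC45B, that of striated muscle, had no counts in either library, and ITGB1BP2, the muscle gene for melusin, had 4 and 3. These 3 genes were singled out after their values were seen. CHORDC1, the relative of melusin, was measured above, and UNC45A, the general counterpart of UNC45B, was at 37.2 TPM in replicate 1 and 32.0 TPM in replicate 2.

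Of 27 genes for client proteins, 23 passed 1 TPM in both libraries. PLK1, a mitotic kinase, was the highest, at 260 ± 23.9 TPM (SD, n = 2). CDK4, at 194 ± 23.4 TPM, and EIF2AK1, the haem-regulated kinase HRI, at 178 ± 1.56 TPM, were also among the 5 highest. HSF1, which HSP90 is thought to hold inactive in unstressed cells, was at 118 TPM in both libraries. The clients that did not pass, singled out after their values were seen, included the receptor genes ESR1 and PGR and the lymphocyte kinase gene LCK. Of the receptors with which FKBP4 and FKBP5 are known to work, NR3C1, the glucocorticoid receptor, was at 10.3 TPM in replicate 1 and 13.3 TPM in replicate 2. Among 26 clients tested, 7 were higher in replicate 2 and 11 in replicate 1, and the median log2 ratio was -0.0079. Against the same backgrounds, these shares say little about clients or other co-chaperones as groups.

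**Figure D5:**
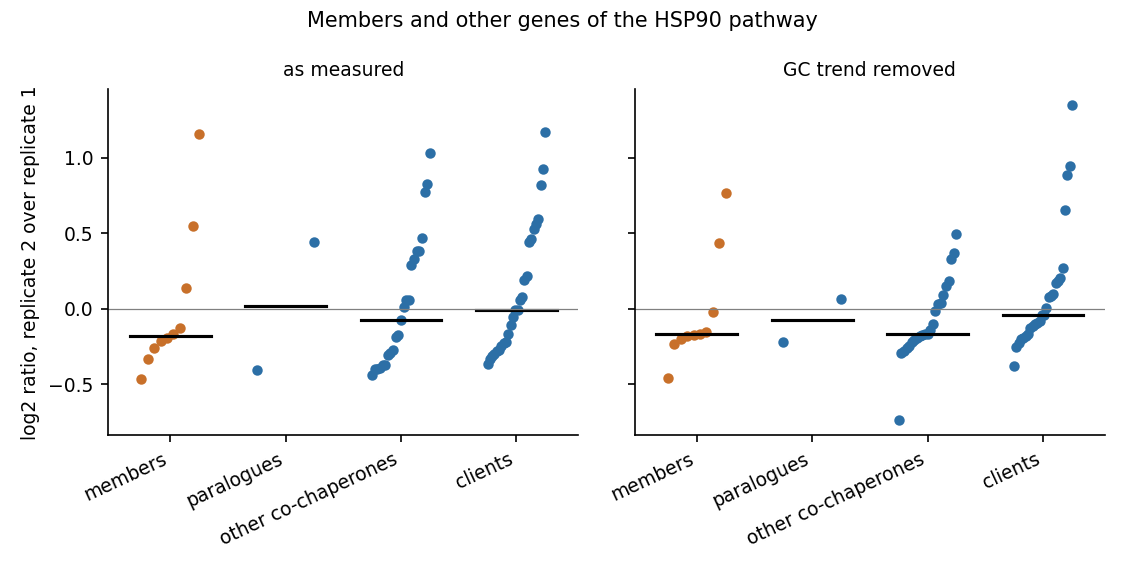
Log2 ratio of replicate 2 over replicate 1 for the members (orange) and for paralogues, other co-chaperones and clients whose counts summed to at least 10 (blue), as measured (left) and with the GC trend removed (right). Points are genes in sorted order and bars are medians, which for the members are -0.18 and -0.17.

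The genes most like each isoform in level were found by Euclidean distance in log2(TPM + 1) over the 2 libraries, among 19390 other protein-coding genes. Nearest to HSP90AA1 were RFC1 (248 TPM in replicate 1 and 391 in replicate 2, distance 0.06), HSP90B1 (distance 0.16) and SRP9 (249 and 345 TPM, distance 0.24). MAGED1 (643 and 596 TPM, distance 0.07) was among the 3 nearest to HSP90AB1. With 2 libraries this is a likeness in level and no more.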

How the data were processed

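Poly(A)+ RNA of 2 libraries was sequenced with 50-base reads, although the labels' molecule field reads genomic DNA. Per the submitters' processing notes, reads were trimmed with Trimmomatic 0.36, aligned to GRCh37/hg19 with STAR 2.6.1c and quantified with RSEM 1.3.1; the study's methods name featureCounts instead. The expected counts deposited by the authors share multi-mapped reads among genes. The deposited TPM and FPKM values are scaled by effective length. The posterior means, SDs, bounds and lengths are deposited signal columns in reads, TPM or bases. A table pooling both libraries was not used.

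Members, lists and tests were chosen with earlier results of these data known. Named genes followed a rule: all members, both paralogues, pseudogenes with a mean TPM of at least 1, the 5 highest of the other co-chaperones and of the clients, the largest ratio of the co-chaperones in each direction, and the 3 genes nearest in level to each isoform. Genes outside it were chosen after their values were seen: the unexpressed genes, NR3C1, UNC45A, the overlapping genes and HSP90AB2P's relatives named for shared sequence. So were RUVBL1 and PIH1D1, named to complete the listed subunits of R2TP. The background of deeply read genes, with counts summing to at least 2000, was also chosen then.

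Symbols, positions and GC content came from GENCODE v44 lifted to GRCh37 (96.1% of identifiers matched). PECAM1 and NEFL were not matched and are not analysed here. Some genes that the rule names are not reported here. Expected counts were rounded. Genes whose counts summed to at least 10 were tested by an exact two-sided binomial test (SciPy 1.17.1) with TMM factors from edgeR 4.0.16, and Benjamini-Hochberg adjustment. Log2 ratios have a pseudocount of 0.5 count, and intervals are exact Clopper-Pearson at 95%. Trends with GC content and length were interpolated from the medians of 50 classes. With 1 group, edgeR's quasi-likelihood test had no contrast. The test was checked on simulated data with counting error only, so the check does not cover spread between libraries or a GC trend. Alternatives covered units, thresholds, DESeq2 1.42.0 size factors, library totals, trends, an edgeR exact test and leaving out each replicate.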

Additional observations from a re-analysis of the deposited data

How the results depend on the processing

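All alternatives were chosen with earlier results of these data known. No paired analysis was possible because both libraries belong to a single group. All 10 members were detected at a TPM of at least 5. Detection at 0.1 TPM, with any count above 0 or in each replicate alone follows from passing 1 TPM in both libraries. The share of the members moved by more than its SD to 0.396% of expected counts and to 0.374% of TPM when 394 copies of mitochondrial genes were left out of the total; without one replicate it ranged from 0.301% to 0.303%. The ratio of HSP90AB1 to HSP90AA1 was 2.03 ± 0.717 (SD, n = 2) and ranged from 1.53 to 2.54 without one replicate. It was 2.01 with counts, 2.02 with posterior means and 2.02 with pseudogene reads added. These alternatives reuse the same reads, and pseudogenes held few, so they could hardly have left that wide SD. Co-chaperones over HSP90, 2.18 by TPM, moved to 1.09 by counts. Library totals, DESeq2 size factors and both count filters changed no member's call or direction. The filters could drop no member, as the lowest summed count was 2187. A pseudocount of 5 enters the ratio and not the test, and it changed no direction. With the GC trend removed, FKBP5 reversed to -0.15 and CDC37 was no longer called. With the length trend removed, AHSA1 and FKBP5 were no longer called. Under the edgeR exact test with an assumed coefficient of 0.1, 1 member was called in place of 10. That coefficient is an assumption, since 1 group of 2 libraries cannot separate culture from library effects. Of the 2 paralogues, 23 other co-chaperones and 26 clients tested, 39 were called (background 43.1%, or 79% among deeply read genes), 38 with library totals or DESeq2 size factors and 33 with the GC trend removed (30.4%, or 61.1%).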
